A study of Mus musculus with 24 samples.

Results

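The genes described here are 172 microRNA (miRNA) precursors of low number, taken by a rule on their names. Every array row with 1 gene symbol was taken whose symbol is a let-7 precursor or Mir with a number below 400, host transcripts left aside. A cluster on chromosome 12 and a set of single precursors treated apart, such as those of miR-9, miR-124 and miR-137, were left out. This gave 172 of the 303 miRNA precursor genes with a row of their own, among 18820 genes in all, and each of the 172 had a single row. The 24 arrays hold RNA of the prefrontal cortex of males, 8 weeks old and of C57BL6/J background, and each array is called a mouse here. The 12 mutants (MUT) were heterozygous for the deletion Df(16)A, labelled Df16(A)+/-, and the 12 wild types (WT) were littermates; no other allele or agent is named for either group. Df(16)A is an engineered deletion of the mouse segment that corresponds to the human 22q11.2 microdeletion, carried in every cell, so no cell type of the cortex is spared. Values are log2 levels after RMA (robust multi-array average), a method that gives 1 value per array row and mouse. Signals of different rows depend on their probes, so their order is not an order of abundance.

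A miRNA gene is transcribed as a long primary transcript that holds 1 or more hairpins. In the nucleus Drosha and its RNA-binding partner Dgcr8 cut the hairpin out, Xpo5 exports it, Dicer1 trims it to a short duplex, and an Argonaute protein keeps a strand. Bases 2 to 8 of that strand, the seed, pair with target messages, so precursors with a common seed share predicted targets. Dgcr8 lies in the deleted segment. An array row named to a precursor reports RNA that contains the hairpin, and it separates neither the primary transcript from the cut hairpin nor measures the mature strand. In this bulk tissue, fewer cells of a type and less RNA per cell cannot be told apart.

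The mature strands below are those of the precursors that rose in mutants and whose sequence was held, with Mir212 for its shared seed. They are shown because several rest on the same few seeds. Letters and positions are those of RefSeq on GRCm38.p6, not of the array's probes, and capitals mark the seed.
Mir181a-1, miR-181a-5p, hairpin at chr1:137966455-137966541, plus strand: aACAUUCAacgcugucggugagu
Mir181b-1, miR-181b-5p, hairpin at chr1:137966639-137966718, plus strand: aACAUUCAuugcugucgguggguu
Mir181c, miR-181c-5p, mature arm at chr8:84178924-84178945, minus strand: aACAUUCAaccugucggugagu
Mir30c-2, miR-30c-5p, hairpin at chr1:23291701-23291784, plus strand: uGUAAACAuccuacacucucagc
Mir384, miR-384-5p, hairpin at chrX:105344282-105344369, minus strand: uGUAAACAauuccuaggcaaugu
Mir29a, miR-29a-3p, hairpin at chr6:31062660-31062747, minus strand: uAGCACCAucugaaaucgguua
Mir29b-1, miR-29b-3p, hairpin at chr6:31063023-31063093, minus strand: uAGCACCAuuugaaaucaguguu
Mirlet7c-2, let-7c-5p, hairpin at chr15:85706603-85706697, plus strand: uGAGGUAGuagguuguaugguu
Mirlet7g, let-7g-5p, hairpin at chr9:106178840-106178927, plus strand: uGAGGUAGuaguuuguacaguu
Mir132, miR-132-3p, hairpin at chr11:75173682-75173747, plus strand: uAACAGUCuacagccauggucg
Mir212, miR-212-3p, hairpin at chr11:75173388-75173478, plus strand: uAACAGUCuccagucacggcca
Mir129-1, miR-129-5p, hairpin at chr6:29022619-29022691, plus strand: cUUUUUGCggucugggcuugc
Mir125b-1, miR-125b-5p, hairpin at chr9:41581926-41582002, plus strand: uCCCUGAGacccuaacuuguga
Mir330, miR-330-5p, hairpin at chr7:19181465-19181562, plus strand: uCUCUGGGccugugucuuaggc
Mir221, miR-221-3p, hairpin at chrX:19146294-19146388, minus strand: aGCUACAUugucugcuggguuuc
Mir27a, miR-27a-3p, hairpin at chr8:84208672-84208758, plus strand: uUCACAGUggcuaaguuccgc
Mir182, miR-182-5p, hairpin at chr6:30165918-30165992, minus strand: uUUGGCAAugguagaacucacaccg
The 3 precursors of miR-181 share the seed ACAUUCA, and the seed of miR-384-5p is GUAAACA, the same as that of miR-30c-5p. In both precursors of miR-29 it is AGCACCA, in both let-7 strands GAGGUAG, and in miR-132-3p and miR-212-3p AACAGUC.

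The arrays were alike, with correlations over all genes from 0.994 to 0.997. Of 20 deleted genes listed as a check of the labels, 19 fell, and Dgcr8 fell from 8.79 ± 0.05 (SD, n = 12) to 8.26 ± 0.08 (limma, adjusted p = 5.2e-13). The 7 measured markers of cortical neurons had a median level of 10.80, against 7.58 over all genes and 5.91 for 5 markers of skeletal muscle. No marker of any cell type passed the test. The lists' median log2 fold changes ran from -0.06 (3 of oligodendrocytes, all below 0) to 0.01 (5 of microglia), with 5 of astrocytes between them, and that of 4 blood markers was -0.56. Mutants 5, 9 and 10 lay farthest out on the first principal component, and counts are therefore also given without them.

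The question was which of these precursors differ in level between mutant and wild-type cortex. Of the 172 precursors, 18 rose in mutants, none fell and 154 did not pass (limma, Benjamini-Hochberg adjustment over all 18820 genes, threshold 0.05). Over all genes 0.531% rose and 0.228% fell, so the 10.5% of these precursors that rose lies above the background. It lies below the share of the other 131 precursors, of which 41 rose (31.3%) and none fell, with a median log2 fold change of 0.16. The precursors were divided with earlier results of these data known, so the gap between these 2 shares is not read as a result. The median log2 fold change of the 172 was 0.09, against -0.0014 over all genes, and 149 of them lay above 0, against 49.0% of all genes. At an unadjusted p under 0.05, 64 were higher (37.2%, against 6.11% of all genes) and 3 lower (1.74%, against 5.82%). Among the 18, the log2 fold change ran from 0.25 to 0.72, with a median of 0.35. Without mutants 5, 9 and 10, left out once their distance was known, 22 rose, 15 of them among the 18.

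The mean over the 172 precursors lay between 5.19 and 5.26 in the 12 mutants (median 5.22). In the 12 wild types it lay between 4.98 and 5.18 (median 5.10). The highest wild type was therefore below the lowest mutant, although single precursors nearly all overlapped. In Mir181b-1 alone, 1 of 172, all 12 mutants lay above all 12 wild types, which over all genes held for 0.112%. The other 17 precursors that rose had between 2 and 11 mutants above the highest wild type.

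**Figure D1:**
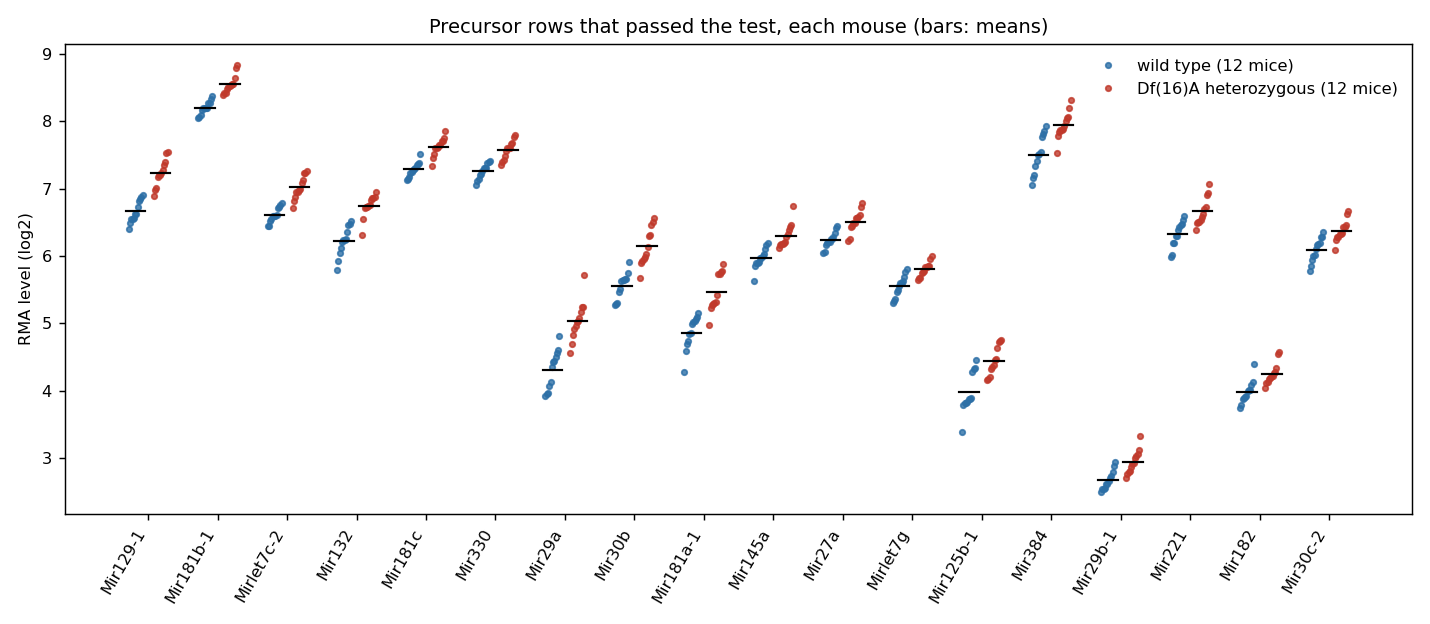
RMA levels (log2) of the 18 precursors that rose, 1 point per mouse drawn in order of value within its genotype, with wild types in blue, mutants in red and bars at the means. Mir181b-1 has no overlap between the genotypes, while Mir182 has 2 of 12 mutants above the highest wild type.

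Precursors of miRNAs known from neurons and glia held the most calls of any list: of 31 measured, 7 rose and none fell, with a median of 0.15. Mir129-1 makes miR-129, a brain miRNA known to act on the excitability of neurons. Its level ran from 6.89 to 7.54 in mutants (median 7.22) and from 6.40 to 6.90 in wild types (median 6.62). Only the lowest mutant lay within the range of the wild types, and the log2 fold change was 0.57 ± 0.07 (SE), a fold of 1.48 (limma, adjusted p = 1.42e-05). Mir132 makes a miRNA induced by neuronal activity through CREB and known to promote the growth of dendrites. Its values ran from 6.31 to 6.95 in mutants (median 6.74) and from 5.79 to 6.52 in wild types (median 6.24). Again 11 of 12 mutants exceeded every wild type (log2 fold change 0.52 ± 0.08, limma, adjusted p = 0.000162).

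The miR-181 family is abundant in brain and in developing lymphocytes. Mir181b-1, with the highest mean signal of the 172, had levels from 8.39 to 8.83 in mutants (median 8.53) and from 8.05 to 8.37 in wild types (median 8.19). The genotypes did not overlap, and the log2 fold change was 0.35 ± 0.05 (limma, adjusted p = 4.38e-05). For Mir181a-1, which lies beside it on chromosome 1, levels ran from 4.97 to 5.88 in mutants (median 5.37) and from 4.27 to 5.16 in wild types (median 4.93). It rose by 0.61 ± 0.11, and 11 mutants lay above the highest wild type (limma, adjusted p = 0.00139). The third to rise, Mir181c on chromosome 8, ran from 7.33 to 7.85 in mutants (median 7.63) and from 7.13 to 7.52 in wild types (median 7.28). Here 9 mutants exceeded every wild type and the log2 fold change was 0.33 ± 0.05 (limma, adjusted p = 0.000188).

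Mir330 and Mir125b-1 completed the group. Mir330, which overlaps the coding gene Eml2, had levels from 7.35 to 7.79 in mutants (median 7.60) and from 7.06 to 7.40 in wild types (median 7.28) and rose by 0.32 ± 0.05 (limma, adjusted p = 0.000364). Mir125b-1, a precursor of a miRNA known from neuronal differentiation, was dim, from 4.17 to 4.75 in mutants (median 4.42) and from 3.40 to 4.45 in wild types (median 3.87). It rose by 0.47 ± 0.10 (limma, adjusted p = 0.0197), 6 mutants being above every wild type, and did not pass under quantile normalization. The nearest brain precursors that did not pass were Mir135a-2 (0.37 ± 0.10, adjusted p = 0.0863) and Mir7-1 (0.19 ± 0.05, adjusted p = 0.114). Mir346, second in mean signal at 8.02, had -0.04 ± 0.04 (adjusted p = 0.685), with both genotypes over nearly the same range, 7.85 to 8.22 in mutants and 7.91 to 8.16 in wild types.

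Precursors of families found in most tissues gave 6 rises among 36, with a median of 0.20, the highest of any list. Mir29a, whose miRNA is known to repress collagens and DNA methyltransferases and to accumulate as the brain matures, had the largest change of the 172. Its levels ran from 4.56 to 5.71 in mutants (median 5.03) and from 3.93 to 4.81 in wild types (median 4.39). With 10 of 12 mutants above the highest wild type, the log2 fold change was 0.72 ± 0.11, a fold of 1.65 (limma, adjusted p = 0.000379). Mir29b-1, its neighbour, ran from 2.71 to 3.34 in mutants (median 2.92) and from 2.50 to 2.94 in wild types (median 2.64). It rose by 0.27 ± 0.06 (limma, adjusted p = 0.0326) at a level of 2.81; only 0.154% of genes had a lower signal. Adjusted over all 35556 rows, 14 of the 18 passed, and Mir29b-1, Mir221, Mir182 and Mir30c-2 did not; Mir29b-1 was also lost under quantile normalization, and Mir182 under median centring and array weights.

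Of the miR-30 precursors in this list, Mir30b and Mir30c-2 rose. Mir30b had levels from 5.67 to 6.57 in mutants (median 6.09) and from 5.27 to 5.91 in wild types (median 5.63). In 10 mutants it exceeded every wild type, and it rose by 0.58 ± 0.09 (limma, adjusted p = 0.000479). Mir30c-2 ran from 6.08 to 6.67 in mutants (median 6.33) and from 5.78 to 6.35 in wild types (median 6.13) and rose by 0.28 ± 0.07 (limma, adjusted p = 0.0414). The genotypes overlapped in most mice. Mir27a, of the cluster with Mir23a and Mir24-2, ran from 6.23 to 6.79 in mutants (median 6.52) and from 6.05 to 6.44 in wild types (median 6.23). It was above every wild type in 9 mutants and rose by 0.27 ± 0.06 (limma, adjusted p = 0.013). Mir221, whose miRNA is known to repress the cell-cycle inhibitor p27, ran from 6.38 to 7.06 in mutants (median 6.61) and from 5.98 to 6.60 in wild types (median 6.34) and rose by 0.34 ± 0.08 (limma, adjusted p = 0.0327).

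Next in this list, without passing, came Mir107 (0.36 ± 0.09, adjusted p = 0.0522), Mir99a (0.37 ± 0.09, adjusted p = 0.0538), Mir222 (0.41 ± 0.10, adjusted p = 0.0545), Mir30e (0.35 ± 0.09, adjusted p = 0.0793) and Mir103-1 (0.31 ± 0.09, adjusted p = 0.117). In Mir107, 9 mutants lay above all wild types, more than in Mir221 (6) and Mir30c-2 (5), so the threshold divides values that are close to each other. Other members of this list with a high signal had smaller values, Mir15a (0.17 ± 0.07, adjusted p = 0.364, mean signal 8.00) and Mir30d (0.20 ± 0.06, adjusted p = 0.16, mean signal 7.78).

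The let-7 family, whose maturation Lin28 proteins block and which opposes stem cell programmes, had 11 measured precursors. All 11 lay above 0, 2 rose and the median was 0.18. Mirlet7c-2 had levels from 6.71 to 7.25 in mutants (median 6.99) and from 6.44 to 6.78 in wild types (median 6.59). With 11 of 12 mutants above the highest wild type, it rose by 0.41 ± 0.06 (limma, adjusted p = 6.17e-05). Mirlet7g ran from 5.65 to 5.99 in mutants (median 5.80) and from 5.31 to 5.81 in wild types (median 5.58) and rose by 0.25 ± 0.05 (limma, adjusted p = 0.0197); without mutants 5, 9 and 10 its adjusted p was 0.136. Mirlet7d had 0.24 ± 0.06 (adjusted p = 0.0534). Mirlet7c-1, named after its value was seen, had the same fold change as Mirlet7c-2, 0.41 ± 0.13, but a wider spread among wild types, from 4.53 to 5.98, and did not pass (adjusted p = 0.174).

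The lists of precursors known from other tissues held 1 call or none each. Their median signals ran from 3.25 to 4.74, against 5.98 for the precursors known from neurons and glia. The part of signal and of list size in these counts was not tested. Of 11 precursors of blood, immune and vessel miRNAs 1 rose (9.09%, against 10.5% of the 172 and 0.531% of all genes), with a median of 0.07. The precursor that rose was Mir145a, known from smooth muscle. Its levels ran from 6.12 to 6.74 in mutants (median 6.24) and from 5.63 to 6.19 in wild types (median 5.97). It rose by 0.33 ± 0.06 (limma, adjusted p = 0.00557). In 7 mutants it was above all wild types. Mir126a, the endothelial precursor, had 0.17 ± 0.07 (adjusted p = 0.344) and Mir199b 0.11 ± 0.05 (adjusted p = 0.403). The mean over 6 markers of vessel cells ran from 8.30 to 8.68 in mutants and from 8.27 to 8.58 in wild types, and 3 of the 6 lay above 0. All 4 measured blood markers lay below 0, with means from 5.69 to 6.68 in mutants and from 6.08 to 8.94 in wild types, and their part in these values was not tested.

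Of 16 precursors of epithelia, gut, liver and sense organs 1 rose (6.25%), with a median of 0.10. Mir182, of a cluster known from sensory cells, ran from 4.05 to 4.58 in mutants (median 4.21) and from 3.74 to 4.39 in wild types (median 3.96). It rose by 0.28 ± 0.07 (limma, adjusted p = 0.0387), the genotypes overlapped in 10 of 12 mutants, and without mutants 5, 9 and 10 the adjusted p was 0.173. Mir31 had 0.30 ± 0.10 and Mir375, known from pancreatic islets, 0.23 ± 0.08 (adjusted p = 0.188 and 0.249). None passed among 14 precursors of the miR-17-92 clusters, known from dividing cells (median 0.06), 7 of muscle (median 0.05), 5 of embryonic stem cells (median 0.04) and 5 in the Hox clusters (median 0.06). Their leading members were Mir106b (0.19 ± 0.06), Mir93 (0.11 ± 0.06), Mir92b (0.13 ± 0.07), Mir133a-2 (0.14 ± 0.06), Mir1a-2 (0.08 ± 0.05), Mir208a (0.05 ± 0.04), Mir302c (0.07 ± 0.05), Mir302b (0.05 ± 0.05), Mir367 (-0.04 ± 0.05), Mir196b (0.14 ± 0.05), Mir10a (0.11 ± 0.08) and Mir10b (0.06 ± 0.05), all with limma adjusted p above 0.05.

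**Figure D2:**
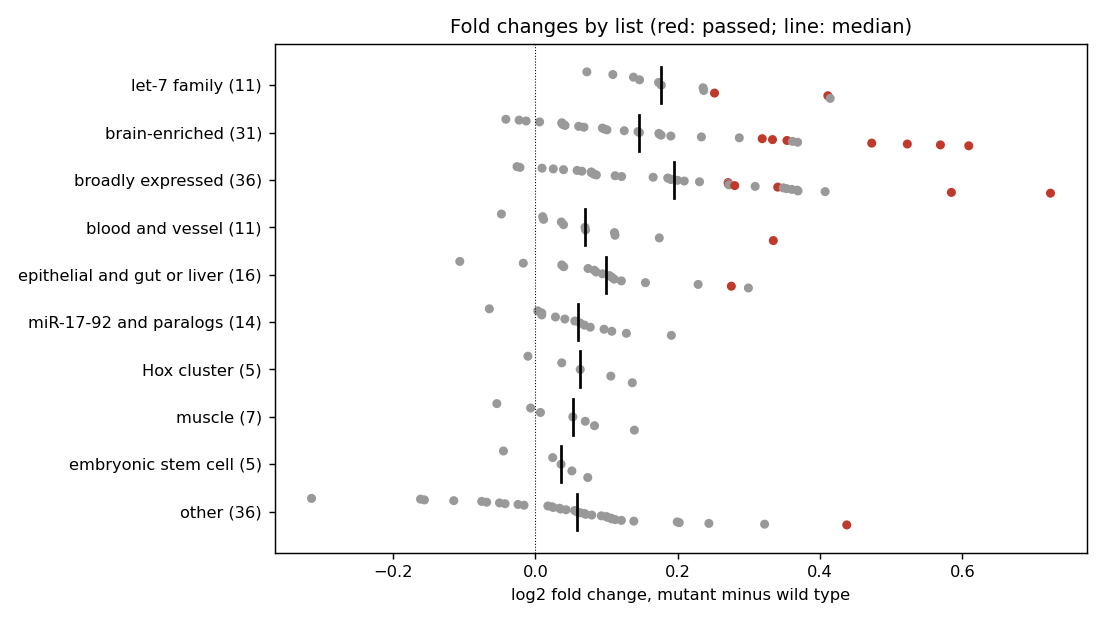
Log2 fold changes (mutant minus wild type) of the 172 precursors, 1 point each, by list with its number of members, red where the test was passed and a line at the median. Brain-enriched, broadly expressed and let-7 precursors hold 15 of the 18 red points, and the medians of all 10 lists lie above 0.

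Another 36 precursors belonged to none of these lists, of which 1 rose. Mir384, an X-linked precursor, had levels from 7.53 to 8.31 in mutants (median 7.90) and from 7.06 to 7.93 in wild types (median 7.50). It rose by 0.44 ± 0.10 (limma, adjusted p = 0.0227), and without mutants 5, 9 and 10 the adjusted p was 0.0996. Mir374b (0.20 ± 0.05, adjusted p = 0.054), Mir326 (0.32 ± 0.08, adjusted p = 0.0558) and Mir345 (0.24 ± 0.06, adjusted p = 0.0697) came next. On the other side, 23 of the 172 had values below 0. The smallest p among them was that of Mir378a, which lies in the gene of the metabolic coactivator Ppargc1b, with levels from 4.42 to 5.50 in mutants (median 5.13) and from 4.84 to 5.66 in wild types (median 5.41). Its value was -0.31 ± 0.11 (limma, adjusted p = 0.242), negative both in arrays 1 to 12 and in arrays 13 to 24, numbered as in the labels (-0.27 and -0.40). Mir297b had -0.16 ± 0.07, Mir32 -0.16 ± 0.08 and Mir187 -0.07 ± 0.06 (adjusted p = 0.38, 0.405 and 0.686).

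Calls were more frequent among precursors with a high signal. Across the 172 precursors, which share the same arrays, Pearson's r between mean signal and log2 fold change was 0.30 and Spearman's rho 0.33. Over all 18820 genes, which include the deleted ones, the values were -0.27 and -0.31. Of the 43 precursors in the highest quartile of signal, above 6.12, 11 rose, where 1.10% of all genes in that range of signal did. In the lower quartiles 2, 4 and 1 of 43 rose, in order of falling signal, against 0.503%, 0.219% and 0.239% of all genes in the same ranges. Within the precursors' range of signal, up to 8.38, calls were thus more frequent in the highest quartile over all genes too. Brighter genes lie outside these ranges, and the genes counted include precursors, these 172 among them. The median of the precursors' signals was 5.21, and 20 of the 172 lay above the middle of the arrays' medians.

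**Figure D3:**
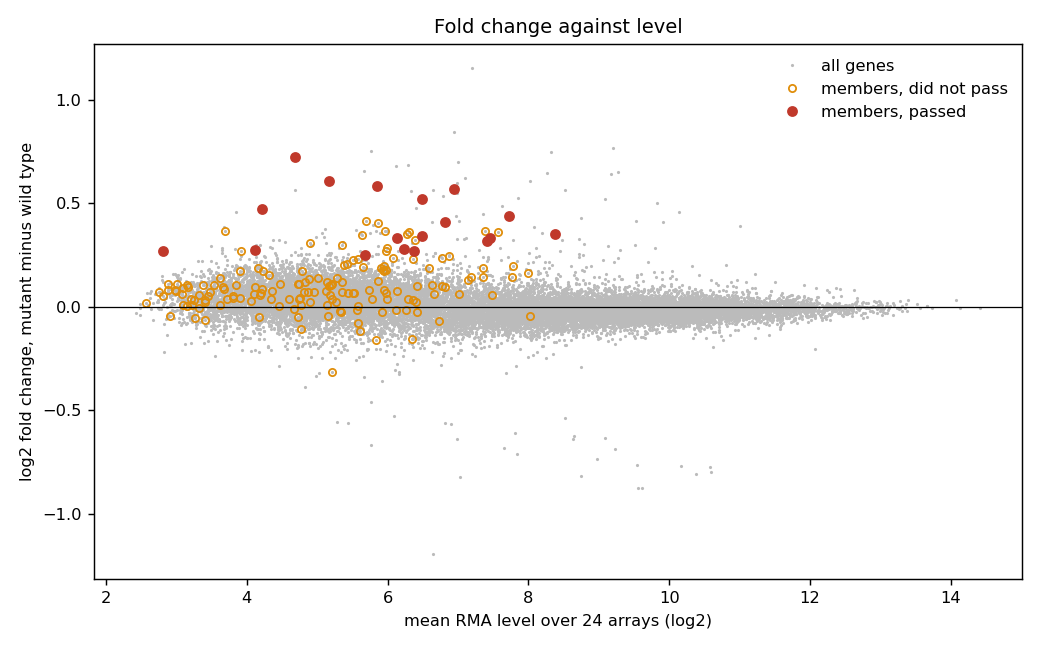
Log2 fold change (mutant minus wild type) against the mean RMA level over 24 arrays, for all 18820 genes in grey, the 154 precursors that did not pass as open circles and the 18 that rose in red. The precursors reach no further right than 8.38 and lie mostly above 0, and the grey points far below 0 include the deleted genes.

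miRNA genes that lie close together are often cut from a single primary transcript, so members of a cluster are not independent. Taking precursors within 10 kb of each other as a cluster, 83 of the 172 fell into 35 clusters, and 12 of the 18 that rose were in such clusters. To ask whether neighbours changed by the same amount, the difference in level between 2 precursors of a cluster was taken in each mouse and compared between genotypes, over 70 pairs. This comparison was added after the values were seen. In 5 pairs the fold changes differed (two-sided permutation test over mice, Benjamini-Hochberg adjusted over the 70 pairs). The rows of a pair have their own probes and mean signals, and the part of these in a difference was not tested.

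Mir132 and Mir212 lie next to each other on chromosome 11 and share a seed, and both are known as activity-induced. Mir212 ran from 7.38 to 8.30 in mutants (median 7.81) and from 7.51 to 7.84 in wild types (median 7.72), with 6 mutants above and 1 below all wild types, its log2 fold change being 0.14 ± 0.08 (adjusted p = 0.46 in limma). The 2 fold changes differed by 0.38 ± 0.07 (SE; permutation p = 1e-05, the smallest the resamples can give, adjusted p = 0.0007). Mir181d, beside Mir181c, had 0.04 ± 0.05, which differed by 0.29 ± 0.06 (permutation p = 0.00014, adjusted p = 0.0049). Mirlet7b, beside Mirlet7c-2, had 0.15 ± 0.05, a difference of 0.26 ± 0.06 (permutation p = 0.00057, adjusted p = 0.0133). Mir30d likewise changed less than its neighbour Mir30b, by 0.38 ± 0.11 (permutation p = 0.00095, adjusted p = 0.0166). The last pair was Mir29a and Mir29b-1, with a difference of 0.45 ± 0.13 (permutation p = 0.00159, adjusted p = 0.0223; adjusted p = 0.0624 without mutants 5, 9 and 10). The signal of Mir29b-1 is among the lowest of all genes and is not shown to lie above background, so this value is not read as a difference between the loci.

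In the other pairs the difference did not pass. Mir23a, Mir27a and Mir24-2 had 0.27 ± 0.08, 0.27 ± 0.06 and 0.21 ± 0.07, and Mir221 and Mir222 had 0.34 ± 0.08 and 0.41 ± 0.10, although in each cluster only 1 member passed. The difference between Mir222 and Mir221 was 0.07 ± 0.10 (permutation p = 0.508, adjusted p = 0.877). Mir145a and Mir143 differed by 0.26 ± 0.09 (permutation p = 0.00621, adjusted p = 0.0725). For Mir181a-1 against Mir181b-1 the difference was 0.26 ± 0.10 (permutation p = 0.0208, adjusted p = 0.208).

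**Figure D4:**
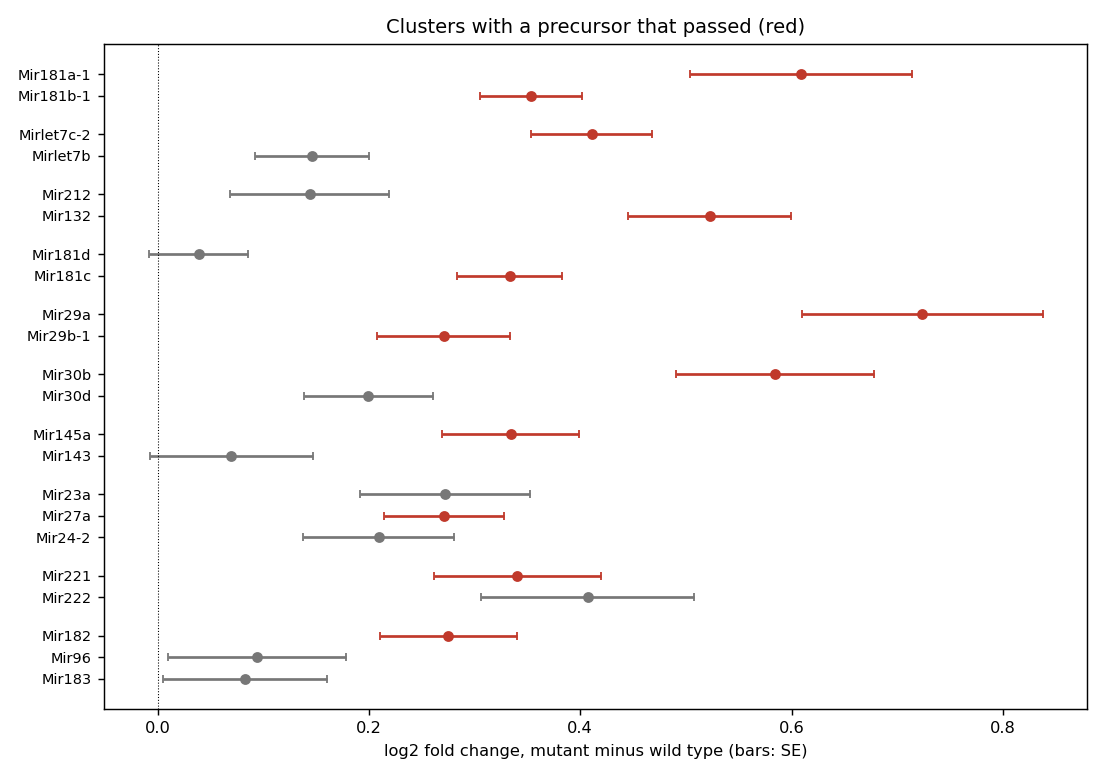
Log2 fold changes (mutant minus wild type) with their standard errors for the 10 clusters that hold a precursor that rose, each cluster set apart, red where the test was passed. Mir132 stands apart from Mir212 and Mir181c from Mir181d, while the 3 members of the Mir23a cluster lie together between 0.21 and 0.27.

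Some miRNAs are encoded at more than 1 locus, so that precursors on different chromosomes give an identical strand. Among the mature strands held, which do not cover every precursor, 17 pairs of precursors had an identical strand, on either arm. In 6 of them the fold changes differed (two-sided permutation test over mice, adjusted over the 17 pairs, also added after the values were seen). Pairs with a strand that was not held, such as that of Mirlet7a-1 and Mirlet7a-2, are not among the 17, and the adjustment does not cover them. The hairpins of the leading 2 pairs are shown with the shared strand in capitals.
Mir181a-1: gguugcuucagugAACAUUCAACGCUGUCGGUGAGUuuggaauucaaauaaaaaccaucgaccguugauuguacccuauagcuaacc
Mir181a-2: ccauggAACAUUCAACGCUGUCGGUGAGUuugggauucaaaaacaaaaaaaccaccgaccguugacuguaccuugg
Mir129-1: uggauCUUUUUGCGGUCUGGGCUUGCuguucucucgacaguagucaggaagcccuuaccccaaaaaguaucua
Mir129-2: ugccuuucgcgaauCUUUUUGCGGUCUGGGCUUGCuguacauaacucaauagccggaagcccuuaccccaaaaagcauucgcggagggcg
Mir181a-2, on chromosome 2, had levels from 5.45 to 6.33 in mutants (median 6.10) and from 5.61 to 6.35 in wild types (median 5.94). The genotypes overlapped over nearly their whole ranges. Its log2 fold change was 0.04 ± 0.08 (limma, adjusted p = 0.898), and the difference from Mir181a-1 was 0.57 ± 0.12 (permutation p = 0.00014, adjusted p = 0.00136). Mir129-2, also on chromosome 2, ran from 5.07 to 5.47 in mutants (median 5.23) and from 4.89 to 5.24 in wild types (median 5.17). It had 0.10 ± 0.04 (limma, adjusted p = 0.344), a difference from Mir129-1 of 0.47 ± 0.10 (permutation p = 0.00016, adjusted p = 0.00136). For both miRNAs, then, the row of 1 locus rose and that of the other did not pass. The rows of a pair have their own probes and differ in mean signal. It was 5.17 for Mir181a-1 and 5.99 for Mir181a-2, and 6.95 for Mir129-1 and 5.17 for Mir129-2. The part of probes and signal in these differences was not tested.

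Mir16-1 and Mir16-2 had 0.37 ± 0.11 and 0.04 ± 0.05, and Mir7-1 and Mir7-2 0.19 ± 0.05 and -0.01 ± 0.06. These differed by 0.33 ± 0.11 and 0.20 ± 0.07 (permutation, adjusted p = 0.0285 and 0.0221), though none of the 4 passed the test by itself. Mir125b-1 exceeded Mir125b-2 by 0.30 ± 0.11 (permutation, adjusted p = 0.0469), and Mirlet7c-2 exceeded Mirlet7a-1, with which it shares the strand of its 3′ arm, by 0.24 ± 0.07 (adjusted p = 0.0213). Mirlet7c-1 and Mirlet7c-2 differed by 0.0033 ± 0.15 (permutation p = 0.983), and Mir30c-1 and Mir30c-2 by 0.09 ± 0.09 (permutation p = 0.347). These standard errors leave room for differences such as 0.20 and 0.24, but not for the 0.57 and 0.47 of the leading 2 pairs.

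**Figure D5:**
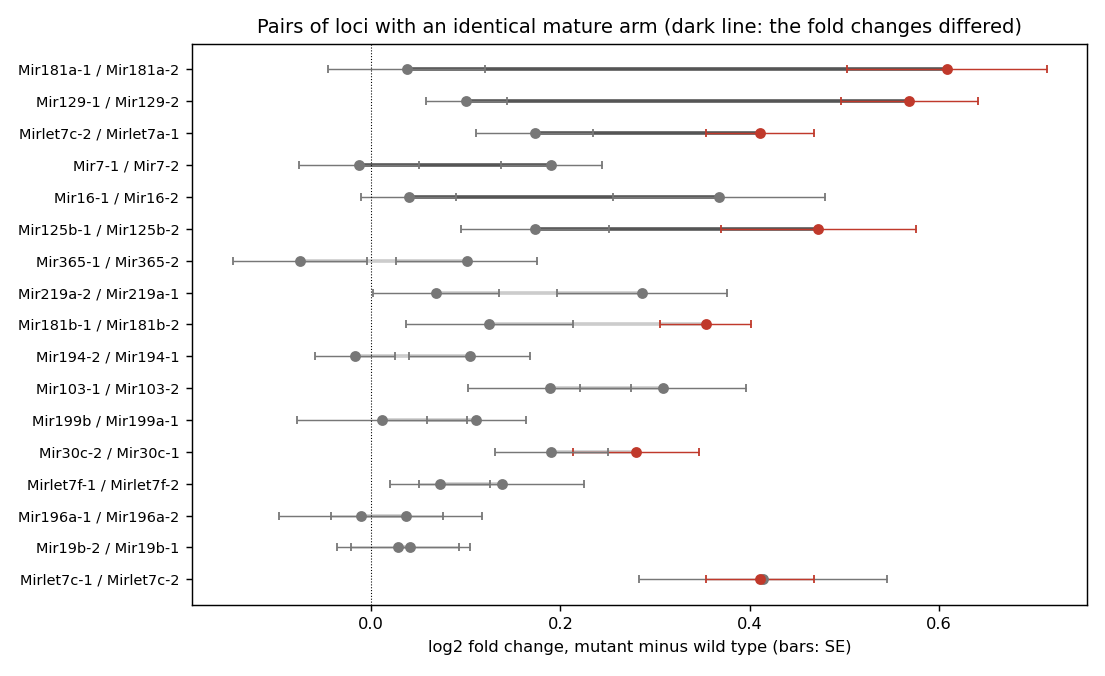
Log2 fold changes (mutant minus wild type) with standard errors of the 17 pairs of precursors with an identical strand among the mature strands held. A dark line joins pairs whose fold changes differed after adjustment and a light line those where they did not. The widest gaps are those of Mir181a-1 with Mir181a-2 and Mir129-1 with Mir129-2.

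Precursors were also grouped by seed, over the members whose mature strand was held. The groups do not hold Mir30b (0.58, which rose), Mir30d (0.20) or Mirlet7a-2 (0.11), so their ranges and counts are not those of whole families. All 6 miR-181 precursors with the seed ACAUUCA lay above 0, from 0.04 to 0.61, and 3 rose. The seed GUAAACA joined Mir30a, Mir30c-1, Mir30c-2, Mir30e and Mir384, with values from 0.19 to 0.44 and 2 rises. Among 10 let-7 and miR-98 precursors with the seed GAGGUAG the values ran from 0.07 to 0.41. The seed CUCUGGG was shared by Mir330 (0.32) and Mir326 (0.32). Of 3 precursors with GCAGCAU, those of miR-103 and miR-107, all lay above 0, from 0.19 to 0.36, and none passed. Precursors with AAAGUGC, of the miR-17 family, had values from 0.003 to 0.19, and those with AUUGCAC, of the miR-25 and miR-92 family, from -0.16 to 0.13, with 3 of 6 above 0.

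The hairpins of precursors that rose were compared with the rest. The GC content of the 15 hairpins of precursors that rose ran from 33.0% to 59.8% with a median of 47.9%, against a median of 47.0% for 136 that did not pass. Across 151 precursors Pearson's r was 0.003 between GC content and log2 fold change, and 0.51 between GC content and mean signal. Log2 fold change had an r of 0.13 and a rho of 0.20 with hairpin length over the same 151, and an r of 0.20 and a rho of 0.26 with loop length over 136. The letters UGU or GUG, searched on the transcribed strand in the loop between both mature arms, where Dgcr8 is known to favour UGU, were in 8 of 14 loops of precursors that rose (57.1%) and 65 of 122 that did not pass (53.3%). In all 644 hairpins of the table with both arms the share was 41.1%. The motifs overlap each other in UGUG and GUGU, and such a loop was counted once.

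Genes beside the precursors that rose were compared to see whether their transcripts moved too. Of 30 genes that overlap 1 of the 18 or lie within 20 kb, 12 were measured and 1 rose, where 0.531% of all genes did. Only 3 of the 12 overlap a precursor that rose. The noncoding genes Lncppara, Carmn and Mirc35hg, which overlap Mirlet7c-2, Mir145a and Mir182, were not measured. The neighbour that rose was Mir100hg, the noncoding host of Mir125b-1, by 0.24 ± 0.04 on the log2 scale (limma, adjusted p = 0.000736). Eml2, a microtubule-associated protein gene that overlaps Mir330, had 0.03 ± 0.03, and Wdr82, a gene of a histone methyltransferase complex that overlaps Mirlet7g, -0.04 ± 0.03 (adjusted p = 0.721 and 0.597). Near Mir132, Smg6, a nuclease of RNA decay, had 0.01 ± 0.02 and Hic1, a transcriptional repressor, -0.05 ± 0.09. Beside Mir181c lie Nanos3 (0.13 ± 0.07) and 4930432K21Rik (-0.05 ± 0.05), and beside Mir182 Nrf1 (0.0074 ± 0.04). The rest, Gipr, Zswim4, Glyctk and Ppm1m, lay between -0.02 and 0.06.

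Of 32 measured genes that cut, export, use or degrade miRNAs, 1 fell, Dgcr8, which lies in the deletion, and 31 did not pass; the median was -0.02 and 21 lay below 0. At an unadjusted p under 0.05, 7 of the 32 were lower, Dgcr8 included, and 3 higher (5.82% and 6.11% of all genes). The smallest p after Dgcr8 were those of 3 genes that did not pass. Adarb1, an RNA-editing enzyme, had -0.07 ± 0.03, Tnrc6c, a silencing partner of Argonaute, 0.07 ± 0.03, and Lin28a, the inhibitor of let-7 maturation, 0.15 ± 0.06 (limma, adjusted p = 0.292, 0.317 and 0.32).

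The labels number the arrays from 1 to 24. Arrays 1 to 12 held 7 mutants and arrays 13 to 24 held 5, and in both sets all 18 precursors that rose had values above 0. Fitted alone, the first set gave 5 rises, 3 of them among the 18, and the second 4, all among the 18; Mir129-1 passed in both. Mir129-1 had 0.52 in the first and 0.58 in the second, and Mir181b-1, which did not pass in the first alone, had 0.34 and 0.36. Wider apart were Mirlet7g (0.14 and 0.35), Mir384 (0.57 and 0.28) and Mir182 (0.18 and 0.37). With the set as a term in the fit, 16 rose, and Mir29b-1, Mir221 and Mir30c-2 were not among them. Of the 154 that did not pass, 88 lay above 0 in both sets.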

How the data were processed

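The authors deposited log2 expression values, 1 per array row and mouse; per the submitters' processing notes they used RMA. Its version and settings, and the build behind the probes, are not given here. Per the labels' protocols, RNA was extracted with a miRNeasy kit, which keeps short RNA, and labelled as whole-transcript cDNA for an Affymetrix array. The values lay between 1.82 and 14.49, with array medians between 6.71 and 6.82. No detection call is given, so no row was called absent, and the number of arrays limits the precision.

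Rows were named through the platform annotation: of 35556 rows, 21218 had 1 symbol, 1881 several and 12457 none listed here. The brightest row stood for each of 18820 genes. MUT and WT were compared with limma 3.58.1 in R 4.3.3 (lmFit, eBayes, genotype as the sole term), adjusted over all genes at 0.05; adjusted p-values are from this fit unless a permutation test is named. Differences between 2 precursors were tested with 100000 permutations of the mice. The scripts were tested on simulated data. The 13 alternatives were quantile normalization, median centring, a variance trend, array weights, 2 filters on low signal, the mean of a gene's rows, a replicate block, the set of arrays as a term, each set of arrays alone, leaving out mutants 5, 9 and 10, and a test of all rows. All 172 precursors matched a RefSeq gene (GRCm38.p6), 151 with a hairpin sequence. Lists written with older names were matched with and without the letter a (Mir145, Mir145a).

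Genes named were every precursor that passed, the 12 above 0 and 5 below 0 with the smallest p that did not, the 5 brightest, up to 3 of each list, the neighbours of those that passed, Dgcr8 and up to 4 processing genes; partners in clusters and pairs were named after their values were seen. The members and lists were chosen with earlier results of these data known. Genotypes share replicate numbers in the labels. The correlation of deviations between a mutant and a wild type of 1 number ran from -0.08 to 0.31 (median 0.10). Between those of different numbers it ran from -0.29 to 0.35 (median -0.01). The median was thus higher within a number, and a pairing is not excluded. The main fit did not take the numbers as pairs, and the replicate block is among the alternatives. The arrays are called mice here, but the labels, which speak of mice and of replicates, do not state that each array is a different animal; p-values measure the spread between these samples.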

Additional observations from a re-analysis of the deposited data

Results flagged for a closer look

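Of 14 rows that carry the symbol of a low-numbered precursor beside another symbol, 3 were higher in mutants (limma over all 35556 rows). In the fit with 1 row per gene, 0.531% of all genes rose. The naming rule left these 14 rows out. Those of Mir29b-2 and Mir29c carry the same second symbol, A330023F24Rik, and are not independent. The row of Mir29b-2 and A330023F24Rik ran from 7.90 to 8.57 in mutants and from 6.92 to 7.60 in wild types, with a log2 fold change of 0.76 ± 0.08 (adjusted p = 6.43e-07). That of Mir29c and A330023F24Rik had 0.44 ± 0.06 (adjusted p = 0.000193), and that of Mir22hg and Mir22 had 0.47 ± 0.08 (adjusted p = 0.00191). In the fit with 1 row per gene, Mir29a and Mir29b-1 rose by 0.72 and 0.27. Mir29b-1 did not pass over all rows, and its signal is not shown to lie above background. A row with 2 symbols does not say which of them gives the signal.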

How the results depend on the processing

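Over 13 alternatives, the count of precursors that rose stayed within 1.5 times of 18 in 10 of them, from 14 with all rows tested to 24 with a trend in the variance, and none fell in any. It was 2 without genes under the median signal, which left 6 of the 172 to test, 5 over arrays 1 to 12 alone and 4 over arrays 13 to 24 alone, with fewer mice. The median log2 fold change was 0.18 without the genes of the lowest quartile of signal (75 precursors tested) and 0.18 without those under the median. With a replicate block 17 rose, 13 of them among the 18; Mir27a, Mirlet7g, Mir29b-1, Mir182 and Mir30c-2 did not pass. Pairs with an identical strand that differed numbered 0 over arrays 1 to 12 (6 at an unadjusted p under 0.05, exact permutation test), 3 over arrays 13 to 24 and 4 with the replicate block; pairs within clusters numbered 0 and 0 (7 and 7 unadjusted) and 3. Of all 172 precursors, 35 changed direction over arrays 1 to 12 and 20 over arrays 13 to 24; none of them had passed, and their log2 fold changes over all arrays were at most 0.14 in size. Among the 53 precursors that the naming rule chose, those were over arrays 1 to 12 in Mir10b (-0.058), Mir302c (-0.0032) and Mir302b (-0.0044) and over arrays 13 to 24 in Mir367 (0.018), and without mutants 5, 9 and 10 it was Mir10a (-0.0033). Of the 18, Mir29b-1, Mir221, Mir182 and Mir30c-2 did not pass with all rows tested, Mir125b-1 and Mir29b-1 with quantile normalization, and Mir182 with median centring or array weights. The causes were not tested, apart from the smaller numbers of genes or mice named.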
